A study of Mus musculus with 72 samples.

Results

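SINE peaks were the open-chromatin peaks whose centre lay in a short interspersed element, the short non-coding retroposons scattered through the mouse genome. They were chosen from the ATAC-seq peak table by the deposited annotation. A peak was kept when its detailed annotation named a SINE and it lay neither at a promoter nor on the mitochondrial chromosome. This gave 2141 peaks of 51984 in the table. The choice used only position and annotation, and no ATAC value.

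SINEs do not code for protein and are copied by the machinery of LINE-1 elements. B1 elements, which the annotation places in the family Alu, descend from 7SL RNA, the RNA of the signal recognition particle, whereas B2 and ID elements descend from transfer RNAs and B4 elements join an ID-like and a B1-like part. MIR is an old family shared by mammals. Young copies carry an internal promoter for RNA polymerase III, and many B2 copies carry a binding site for CTCF, the factor that anchors chromatin loops.

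The cells were RAW264.7, an established mouse macrophage-like line from a BALB/c background, which is also the genotype given in the labels. Each library's title named a lentiviral short hairpin: shGFP as the control, shNCOR against the corepressor NCOR (gene Ncor1) or shSMRT against the related corepressor SMRT. Both corepressors carry histone deacetylase 3 to transcription factors. ATAC-seq, which cuts and tags open DNA with a transposase, and RNA-seq each had 3 libraries per hairpin, all from cells with no further treatment named. One hairpin name was given per target, the labels did not say whether libraries came from separate cultures, and the labels' ATAC protocol spoke of wild-type cells. The p-values thus cover the variation among these libraries alone, possibly technical, and a hairpin's effect cannot be told apart from a difference between separately infected populations. Because the samples were bulk, fewer cells with an open site and less opening per cell cannot be told apart.

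The RNA targeted by shNCOR matched the titles. Ncor1 stood at 18.4, 20.2 and 18.7 RPKM (reads per kilobase of exon per M reads, M meaning mega) with shGFP and at 3.61, 4.20 and 4.30 RPKM with shNCOR. Of 9 macrophage markers, 8 were above 1 RPKM, and their summed level moved with the group: 7062 to 7215 RPKM with shGFP, 8200 to 8485 with shNCOR and 9997 to 10538 with shSMRT. The part of this shift in the results was not tested. No B cell, neutrophil or mast cell, fibroblast or epithelial marker was above 1 RPKM in 3 libraries, and of the T cell markers Lck alone was. The ATAC libraries held 6.06 to 10.8 M reads, with 50.6 to 54.0% of reads in peaks with shGFP, 54.7 to 55.7% with shNCOR and 47.7 to 49.9% with shSMRT. A median SINE peak held 25 to 46 reads per library, so a single peak was measured with appreciable counting error.

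The sequence under 3 SINE peaks could be shown, because a RefSeq promoter window of a neighbouring non-coding gene held the peak centre. Each window runs 300 bases 5′ to 3′ on the gene's strand in GRCm38.p6, the assembly of mm10. Capitals mark up to 21 bases around the peak centre, the point to which the SINE annotation applies. The first, in a MIRb element near Top1 (DNA topoisomerase I), is the window of LOC115489488 at chr2:160620018-160620317 on the minus strand. The second, in a B3A element of the B2 family near Rrm2 (a ribonucleotide reductase subunit), is the window of Gm52012 at chr12:24700626-24700925 on the minus strand. The third, in an ID_B1 element of the B4 family near E330021D16Rik, is the window of Gm36897 at chr6:136463425-136463724 on the plus strand.
MIRb Top1: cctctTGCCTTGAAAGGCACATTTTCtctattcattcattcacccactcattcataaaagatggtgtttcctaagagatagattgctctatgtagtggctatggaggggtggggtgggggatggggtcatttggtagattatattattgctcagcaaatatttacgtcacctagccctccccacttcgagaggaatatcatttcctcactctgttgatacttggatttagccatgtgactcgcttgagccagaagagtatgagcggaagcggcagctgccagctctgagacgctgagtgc
B3A Rrm2: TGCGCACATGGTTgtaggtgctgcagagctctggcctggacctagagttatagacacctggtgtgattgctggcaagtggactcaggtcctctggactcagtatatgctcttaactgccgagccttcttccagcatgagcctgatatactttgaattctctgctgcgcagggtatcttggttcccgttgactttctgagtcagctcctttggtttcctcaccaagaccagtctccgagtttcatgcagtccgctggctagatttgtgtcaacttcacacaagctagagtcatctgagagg
ID_B1 E330021D16Rik: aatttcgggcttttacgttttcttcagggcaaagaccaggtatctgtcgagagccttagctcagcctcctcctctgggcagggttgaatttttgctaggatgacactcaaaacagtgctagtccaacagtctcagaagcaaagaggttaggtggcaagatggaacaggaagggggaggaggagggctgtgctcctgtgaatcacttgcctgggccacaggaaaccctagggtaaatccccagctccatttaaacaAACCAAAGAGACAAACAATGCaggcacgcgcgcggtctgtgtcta

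The 3 peaks differed in level and in response. The deposited ATAC value is the number of reads in a peak scaled to 10 M reads per library. The MIRb peak near Top1 stood at 189, 191 and 211 with shGFP, at 226, 259 and 277 with shNCOR and at 216, 202 and 215 with shSMRT. All shNCOR libraries lay above all shGFP libraries, and the log2 change was 0.35 (limma adjusted p = 0.0229). This call ended without shGFP library 1 or 2 or shNCOR library 2 or 3 (largest adjusted p = 0.125, without shNCOR library 3). It also ended under equal totals in peaks (0.29, adjusted p = 0.0626) and quantile normalization (0.27, adjusted p = 0.0889). The B3A peak near Rrm2 stood at 53.7, 43.1 and 44.3 with shGFP, at 39.6, 39.6 and 55.8 with shNCOR and at 58.2, 46.5 and 43.9 with shSMRT, with overlapping groups and no call. The ID_B1 peak near E330021D16Rik stood at 40.2, 72.2 and 41.5 with shGFP, at 56.8, 72.6 and 82.5 with shNCOR and at 42.2, 29.5 and 48.1 with shSMRT. Its shSMRT libraries lay below its shNCOR libraries, with a log2 difference of -0.76 (limma adjusted p = 0.011). That call ended without shNCOR library 3 (-0.65, adjusted p = 0.0617), without shSMRT library 2 (-0.58, adjusted p = 0.0829) and under equal totals in peaks (-0.60, adjusted p = 0.0714).

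In all, 9 windows overlapped a SINE peak, and 12 motifs were searched in them on both strands. The letters TGANTCA, the core recognised by the AP-1 factors of macrophages, stood in 4 of 9 windows, beside 7.81% of all 32851 windows of that length. They stood in the Rrm2 and E330021D16Rik windows shown above, each inside the peak but outside the capitals. The window beside a MIR peak near Jdp2, which encodes an AP-1 family repressor, held 2 matches. That MIR peak was higher with shNCOR by 0.51 on the log2 scale (limma adjusted p = 0.00409), and this call ended without shNCOR library 3 (0.40, adjusted p = 0.0574). The PU.1 and ETS letters GAGGAAGT, the E-box CACGTG and the nuclear receptor core AGGTCA each stood in 1 of 9 windows, beside 3.2%, 7.15% and 16.3% of all windows. The letters TTGCNNAA (C/EBP), TGTGGTT (RUNX) and GTTCNANNC (the B box of RNA polymerase III promoters) stood in none of the 9, beside 10.8%, 5.27% and 9.32% of all windows. Nor did the letters TCACGTGA (MITF and TFE), which contain the E-box, or the interferon response, CTCF core, direct repeat 4 and direct repeat 2 motifs, beside 0.974%, 1.05%, 0.557%, 0.0426% and 0.0396% of all windows. A match is a run of letters and not a measured binding site, and 9 windows are too few for a comparison.

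B2 was the most numerous family, with 902 peaks, and its peaks were the narrowest and the lowest among the families of 100 or more. The family B4 held 423 peaks, MIR 394, Alu 357, ID 44, Deu 17 and tRNA 4. The median width was 254 bp for B2, 295 bp for B4, 301.5 bp for MIR and 390 bp for Alu, beside 333 bp over all 42766 peaks off promoters. The median value was 32.3 for B2, 47.1 for B4, 50.1 for MIR and 50.6 for Alu, beside 49.4 over all peaks off promoters. Per 100 bp the families lay closer together, at 13.1 for B2, 13.3 for Alu and 16.2 for MIR. The 17 Deu peaks, members of another old family, had the highest median value, 87.3.

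B2 peaks were also detected in the fewest libraries. The table states in how many libraries each peak was called by the authors. All 9 libraries called 26.2% of B2 peaks, 38.5% of B4 peaks, 44.8% of Alu peaks and 46.4% of MIR peaks, beside 45.1% of all peaks off promoters. Of the 2141 SINE peaks, 331 (15.5%) were called in 3 libraries, the fewest for any of them. A peak called in few libraries may be in the table through the group where it is high. The p-values below do not allow for that. LTR peaks, which lie in remnants of endogenous retroviruses, were like SINE peaks in level, with a median value of 38.9, and 38.5% of them were called in all 9 libraries.

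Most SINE peaks lay beyond 5 kb from a start site, and the rule had left out peaks at promoters. The annotation placed 1225 (57.2%) in introns and 916 between genes. The median distance to the nearest start site was 15503 bp, beside 18304 bp over all peaks off promoters, 22673 bp for LTR and 25640 bp for LINE peaks. Among the families of 100 or more peaks it was longest for MIR (20953 bp) and shortest for Alu (13557 bp). Within 5 kb of a start site lay 339 peaks (15.8%), and 117 (5.46%) lay beyond 100 kb. Over all peaks off promoters these shares were 19.4% and 8.83%. Their nearest genes numbered 1881, of which 1660 were nearest to a single SINE peak. Rbm47, which encodes an RNA-binding protein, was nearest to 6, and Slc41a2, Atp6v1a and Furin to 4 each.

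By named element, B3 was the most common. It gave 381 peaks and its relative B3A 233, whereas the B2 elements B2_Mm2, B2_Mm1a and B2_Mm1t gave 192, 50 and 46. Within the B4 family, B4A gave 130 peaks, RSINE1 124, ID_B1 111 and B4 itself 58. MIRb gave 120, MIR 117, MIR3 89 and MIRc 68. Within the family Alu, PB1D10 gave 51, B1F 50 and B1_Mus1 43. Reads from near-identical copies of a young element cannot be told apart, and the sources used here do not state how such reads were placed.

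The highest mean of each large family lay outside introns. The B1_Mus1 peak 6812 bp from Arl4d (chr11:101658194-101659265) had the highest SINE mean, 788.7, and was lower with shSMRT by a log2 change of -0.23 (limma adjusted p = 0.0268). That call ended under each of the other scalings, with equal totals in peaks at -0.13 (adjusted p = 0.175), with the replicate number as a block (-0.23, adjusted p = 0.0668), and without shGFP library 1 or 2 or shSMRT library 1 or 2 (largest adjusted p = 0.111). In B4 the highest mean was the ID_B1 peak 17779 bp from Ifnar2, a subunit of the type I interferon receptor. In B2 it was the B2_Mm2 peak 8943 bp from Mascrna, a small RNA cut from the Malat1 transcript. In MIR it was the peak 37220 bp from Osbpl8, a lipid transfer protein. None of these 3 was called against shGFP with either hairpin.

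Reads in SINE peaks made up a slightly larger share of all reads in peaks with shSMRT. The share was 2.59, 2.64 and 2.65% with shGFP, 2.61, 2.61 and 2.71% with shNCOR, and 2.80, 2.73 and 2.73% with shSMRT. The 3 shSMRT libraries lay above all others, while shGFP and shNCOR overlapped. The means were 2.63% ± 0.028 (SD, n = 3), 2.64% ± 0.059 and 2.75% ± 0.045, so shSMRT stood 0.07 above shGFP on the log2 scale (exact permutation test over the 3 groups, two-sided, p = 0.0357, where 1680 assignments allow 0.00357 at the least). This call did not hold without 1 library in 7 of 9 cases (exact permutation test, p = 0.0571 to 0.1), and it held only without shGFP library 3 (p = 0.0464) or shNCOR library 3 (p = 0.0143). Promoter peaks moved the other way, since 2087 of 9192 tested were called lower with shSMRT and 140 higher, with a median log2 change of -0.20. The share of all peaks off promoters was also higher with shSMRT. It was 64.1, 65.1 and 65.3% with shGFP, 63.8, 63.4 and 65.1% with shNCOR, and 68.1, 66.7 and 66.7% with shSMRT. Among peaks at least 2 kb from a start site, the log2 difference of the SINE share between shSMRT and shGFP was -0.0022, so the rise seen among all peaks did not hold there. The groups still differed at that distance (exact permutation test over the 3 groups, p = 0.0107), with shNCOR 0.028 above shGFP. The median over SINE peaks gave 0.013 with shSMRT (exact permutation test, p = 0.646).

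MIR peaks showed the clearest order of the groups. Their share was 0.558, 0.571 and 0.569% with shGFP, 0.578, 0.571 and 0.598% with shNCOR, and 0.636, 0.606 and 0.608% with shSMRT. Every shSMRT library lay above every shNCOR library, and those above every shGFP library, although the closest pair differed in the fourth digit. The mean rose by 0.04 with shNCOR and by 0.12 with shSMRT on the log2 scale. The exact permutation test over the 3 groups gave p = 0.00357, the smallest these groups allow (adjusted over 5 families p = 0.0179). It does not test single pairs of groups. Away from start sites, by 2 kb or more, the MIR values were 0.069 and 0.055. The mean of shNCOR thus lay above that of shSMRT there, and the order did not hold. For the median over peaks the MIR values were 0.011 and 0.11 (exact permutation test, p = 0.0929).

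Of the other 4 families tested, Alu passed as well. The Alu share was 0.536, 0.545 and 0.537% with shGFP, 0.555, 0.546 and 0.566% with shNCOR, and 0.566, 0.561 and 0.564% with shSMRT, with both knockdowns above the control (exact permutation test over the 3 groups, p = 0.0143, adjusted p = 0.0357). Without shGFP library 1 or 3 the exact p was 0.05, which did not pass. With shSMRT this turned to -0.012 on the log2 scale at 2 kb or more from a start site and to -0.034 for the median over peaks. B2 shares averaged 0.870, 0.844 and 0.879%, and B4 shares 0.549, 0.561 and 0.586%, and neither passed (exact permutation test, adjusted p = 0.132 and 0.067). ID shares averaged 0.0605, 0.0604 and 0.0677%, with shSMRT 0.16 above shGFP on the log2 scale, and did not pass either (adjusted p = 0.0595 by the same exact test).

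**Figure D1:**
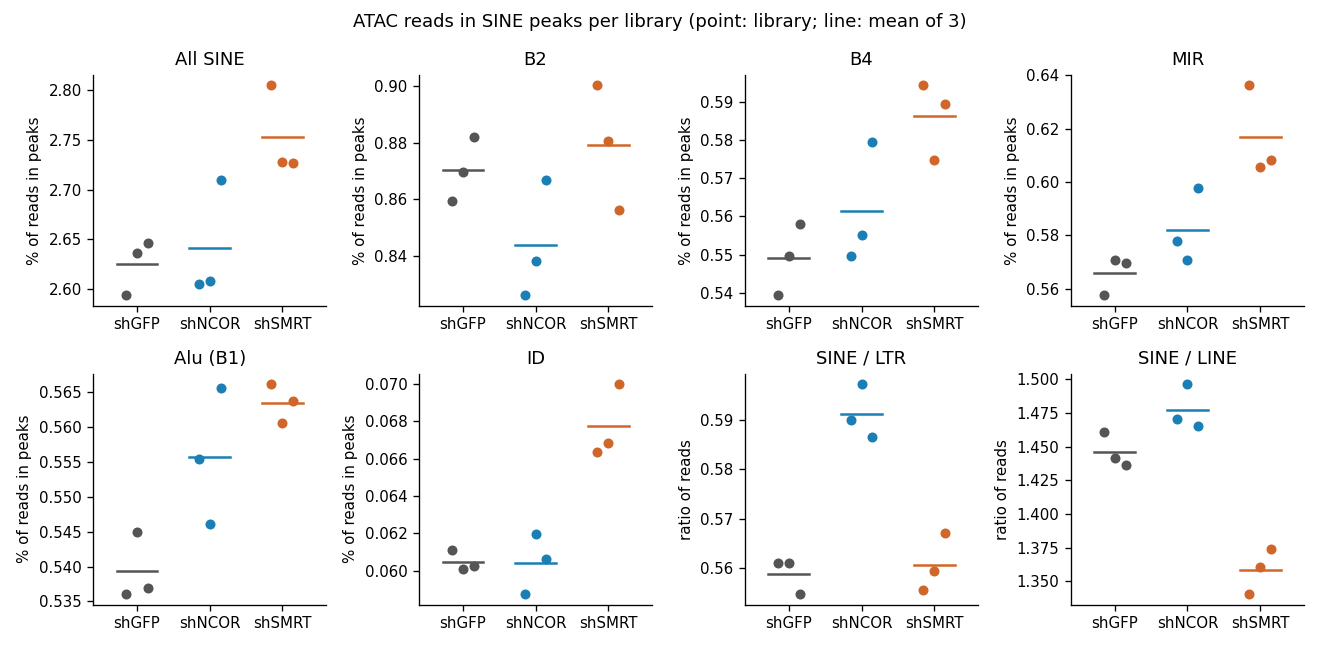
ATAC reads in SINE peaks by library. The vertical axis gives the percentage of reads in peaks, or in the last 2 panels the ratio of SINE to LTR or LINE reads; points are libraries, lines the means of 3, and the axes do not start at 0. The shSMRT libraries sit above the others for all SINE (2.73 to 2.80%) and for MIR, and below them for the ratio to LINE.

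Set against other repeats, the ratio of SINE to LTR reads was higher with shNCOR, and the ratio to LINE reads was lower with shSMRT. The LTR share of reads in peaks was 4.62, 4.70 and 4.77% with shGFP and 4.42, 4.37 and 4.62% with shNCOR, whereas the SINE shares of these groups overlapped. The LINE share was 1.78, 1.83 and 1.84% with shGFP and 2.09, 2.00 and 1.98% with shSMRT, where the SINE share was higher too. The ratio of SINE to LTR reads was 0.561, 0.561 and 0.555 with shGFP, 0.590, 0.597 and 0.587 with shNCOR, and 0.556, 0.559 and 0.567 with shSMRT. The shNCOR libraries stood apart from both other groups, by 0.08 on the log2 scale from shGFP. The test was of the 3 groups together and not of this pair (exact permutation test, adjusted over 2 ratios p = 0.0286). The ratio to LINE reads was 1.46, 1.44 and 1.44 with shGFP, 1.47, 1.5 and 1.47 with shNCOR, and 1.34, 1.36 and 1.37 with shSMRT. Its log2 change was 0.03 with shNCOR and -0.09 with shSMRT, and the shSMRT libraries lay below all others. Here too the test was of the 3 groups together (exact permutation test, adjusted p = 0.00714). Both ratios with shNCOR kept their direction at 2 kb or more from a start site and for the median over peaks, as did the LINE ratio with shSMRT.

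Single peaks were tested with limma on log2(value + 5) over the 51469 peaks that reached 10 reads per 10 M in 3 libraries or more, and 2127 of the 2141 SINE peaks passed that filter. A peak was called at an adjusted p below 0.05. With shNCOR, 97 SINE peaks were called higher and 54 lower, 7.1% of those tested, beside 8.58% of all peaks tested (4.58% higher and 4% lower). For 25.9% of SINE peaks all shNCOR libraries lay on one side of all shGFP libraries, which is also the share over all peaks. The median log2 change was 0.05, the same as over all peaks. At an unadjusted p below 0.05 stood 422 SINE peaks, and 17 higher and 18 lower peaks changed by 1 or more on the log2 scale. The split depended on scaling, with 53 higher and 67 lower under equal totals in peaks, 70 and 64 under TMM, and 64 and 55 under quantile normalization. The higher count was 58, 44 and 62 without shGFP library 1, 2 and 3, and 53 without shNCOR library 3. The lower count was 27, 34 and 25 without shGFP library 1, 2 and 3, and 35 without shNCOR library 2.

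With shSMRT, 102 SINE peaks were called higher and 121 lower than with shGFP, the same 3 control libraries as above. This was 10.5% of those tested, below the 17.7% of all peaks (6.81% higher and 10.9% lower). The groups did not overlap for 28.1% of SINE peaks, beside 35.2% of all peaks and 33.5% of all peaks off promoters. The median log2 change was -0.03, beside -0.09 over all peaks. Peaks off promoters in general were called more often too, at 16.3%, with 14.8% in LTR and 16.5% in LINE elements. The split was 147 higher and 69 lower under equal totals in peaks, 139 and 73 under TMM, and 140 and 99 under quantile normalization. The higher count fell to 61 without shGFP library 1, and the lower count to 73 without it and to 68 without shGFP library 3.

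Between the knockdowns, 105 SINE peaks were called higher and 186 lower with shSMRT than with shNCOR, 13.7% of those tested, beside 24.4% of all peaks (6.93% higher and 17.5% lower). Of all peaks off promoters 19.7% were called, with 18% in LTR and 19% in LINE elements, and of promoter peaks 46%. The groups did not overlap for 26.3% of SINE peaks, beside 35.7% of all peaks and 31.5% of all peaks off promoters. The median difference was -0.06 on the log2 scale, beside -0.12 over all peaks, and the latter became 0.04 under equal totals in peaks. The direction of the split turned with it, to 157 higher and 62 lower, and to 141 and 80 under TMM and 102 and 92 under quantile normalization. The higher count was 66 without shSMRT library 2. Relative to the median of all peaks, the SINE median was 0.06 higher in this comparison and also with shSMRT against shGFP. This was not particular to SINE peaks. In the same 2 comparisons all peaks off promoters lay 0.057 and 0.044 higher, LTR peaks 0.11 and 0.054, and LINE peaks 0.14 in both. Under quantile normalization the SINE offset did not hold. The SINE and all-peak medians were then -0.058 and -0.032 between the hairpins, and both were -0.03 with shSMRT against shGFP.

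B2 peaks were called least often among the large families in all 3 comparisons. With shNCOR, 21 B2 peaks were higher and 17 lower of 893 tested (4.26%). The same counts were 23 and 15 of 422 for B4 (9%), 28 and 10 of 391 for MIR (9.72%) and 18 and 9 of 357 for Alu (7.56%). The share called was 8.58% over all peaks and 9.46% over all peaks off promoters. The B2 median lay 0.07 below that of all peaks on the log2 scale, and the MIR median 0.07 above it. Measured the same way, the offset was -0.074 for LTR peaks, near that of B2, 0.0018 for LINE peaks and -0.016 for all peaks off promoters. Among small families, 6 of 43 ID peaks were higher and none lower, and 1 of 17 Deu peaks was higher and 3 lower. Under equal totals in peaks the splits were 10 higher and 20 lower for B2, 13 and 19 for B4, 17 and 14 for MIR and 9 and 11 for Alu. Of the 4 tRNA peaks none was called.

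With shSMRT, MIR peaks were called most often among the large families. Of the 391 tested, 36 were higher and 30 lower (16.9%), a share near the 17.7% of all peaks and the 16.3% of all peaks off promoters. The counts were 30 and 20 for B4 (11.8%), 15 and 19 for Alu (9.52%) and 14 and 47 for B2 (6.83%). Relative to all peaks, the MIR median was 0.15 higher and the B2 median 0.017 higher on the log2 scale. The LINE median was 0.14 higher, near that of MIR, the LTR median 0.054 higher and that of all peaks off promoters 0.044 higher. Under equal totals in peaks the B2 split was 26 and 28 and the MIR split 52 and 14. The Alu split turned to 21 higher and 11 lower. Quantile normalization put the B2 median 0.069 below that of all peaks instead. Of 43 ID peaks, 5 were higher and 2 lower.

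**Figure D2:**
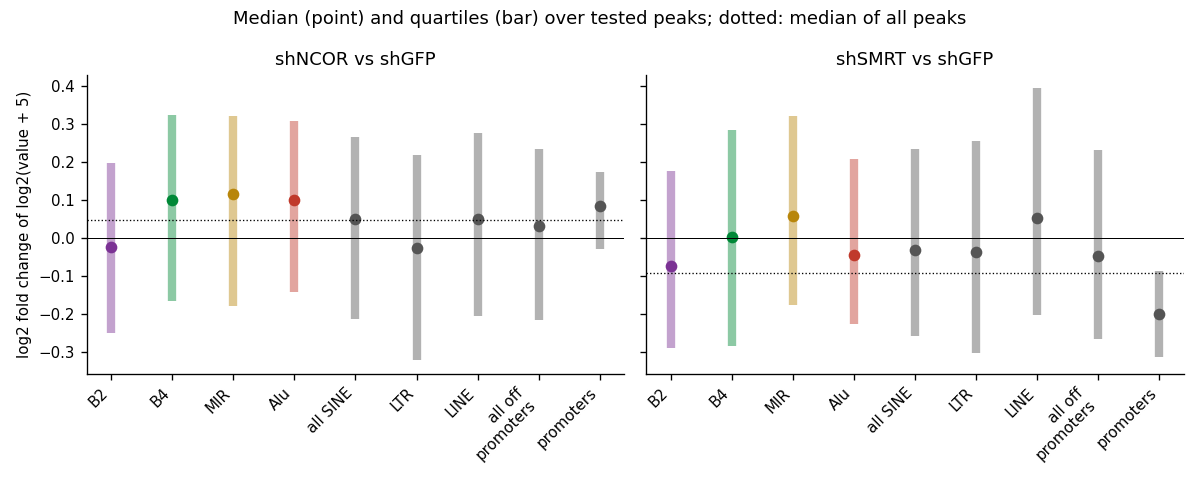
Log2 fold changes over the tested peaks of each SINE family and of other peak sets, for shNCOR and shSMRT against shGFP. Points are medians, bars run between the quartiles and the dotted line marks the median of all peaks; the family medians lie near that line, and promoters with shSMRT lie lowest, at -0.20.

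Called shares with shNCOR were similar for intronic (6.76% of 1213) and intergenic SINE peaks (7.55% of 914), beside 9.46% of all peaks off promoters. With shSMRT the shares were 8.74% and 12.8%, beside 16.3% of all peaks off promoters.

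Weak peaks were called less often than strong ones, and B2 peaks are weak, so calls were counted by level. In the class with a mean below 30 reads per 10 M, 1.52% of B2 peaks were called with shNCOR, beside 5.9% of all peaks off promoters. Between 30 and 60 the shares were 3.24% and 7.91%, and at 60 or more they were 11.6% and 12.8%. With shSMRT the B2 shares were 3.29, 4.85 and 17.5% from the lowest to the highest class, beside 11.4, 13.7 and 21.1% of all peaks off promoters. B2 peaks thus lay below all peaks off promoters at each level. So did Alu peaks, at 3.3, 6.84 and 10.7% with shNCOR and at 8.79, 5.98 and 12.8% with shSMRT. B4 peaks did so with shSMRT, at 10.4, 12.3 and 12.6%. In the highest class B2 peaks lay above Alu with shNCOR and above B4 and Alu with shSMRT. MIR peaks were at 3.96, 5.6 and 16.4% with shNCOR. With shSMRT they were at 13.9, 16.8 and 18.8%, above B2, B4 and Alu in each class. These shares are descriptions without a test.

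**Figure D3:**
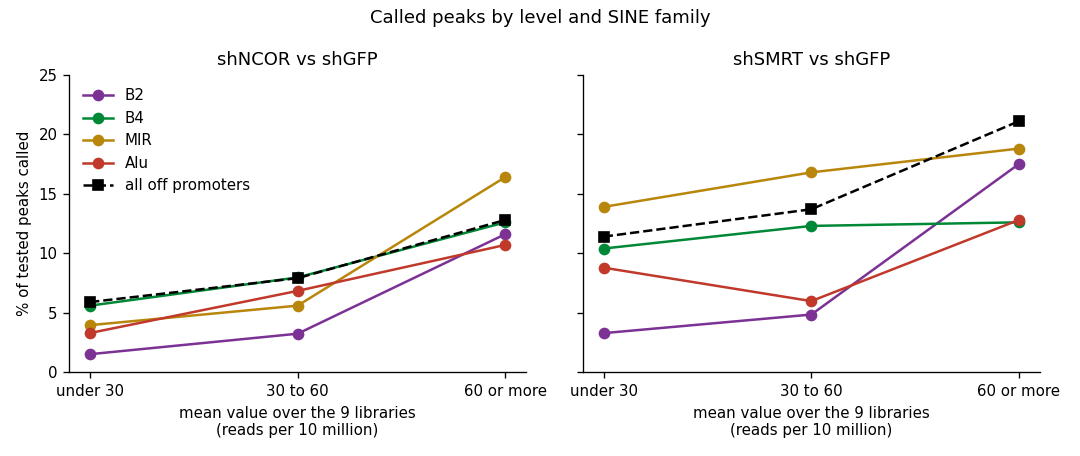
Percentage of tested peaks called, by mean value over the 9 libraries, for 4 SINE families and all peaks off promoters. B2 rises from 1.52% in the lowest class to 11.6% in the highest with shNCOR and from 3.29% to 17.5% with shSMRT.

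Among peaks higher with shNCOR, the B4A peak between genes at chr3:21962098-21962694 had the largest fold. It lies 114256 bp from Tbl1xr1, which encodes a core subunit of the NCOR and SMRT complexes. It stood at 41.4, 60.9 and 49.8 with shGFP, at 145, 153 and 162 with shNCOR, and at 80.8, 76 and 90.5 with shSMRT. The 3 groups did not overlap, and the log2 change was 1.52 ± 0.16 (SE) with shNCOR (limma adjusted p = 1.1e-09) and 0.66 ± 0.16 with shSMRT (adjusted p = 0.00264). Tbl1xr1 RNA rose from 7.27 to 10.8 and 9.91 RPKM, by 0.51 and 0.40 on the log2(RPKM + 1) scale (limma adjusted p = 1.34e-05 and 4.92e-05).

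The B3A peak 33371 bp from Map4k3, a kinase upstream of mTORC1 and JNK signalling, was also higher beside a gene whose RNA rose. At chr17:80761284-80761509 it stood at 16.8, 11.2 and 14.8 with shGFP, at 42.2, 49.5 and 43.1 with shNCOR, and at 41.3, 44.2 and 18.4 with shSMRT. Both knockdowns lay above the control, and 1 shSMRT library lay close to it. The log2 change was 1.38 ± 0.30 (limma adjusted p = 0.0014) with shNCOR and 0.98 ± 0.30 (adjusted p = 0.0177) with shSMRT. The shSMRT call ended without shGFP library 2 (0.86, adjusted p = 0.0701) and without shSMRT library 1 or 2 (0.83 and 0.78, adjusted p = 0.11 and 0.116). Map4k3 RNA rose by 0.85 and 0.91 on the log2 scale, from 3.52 RPKM to 7.17 and 7.53 (limma adjusted p = 1.76e-06 and 6.64e-07).

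In the first of 3 introns of Hebp1, which encodes a heme-binding protein, a MIR3 peak (chr6:135161338-135161608) stood at 8.95, 10.3 and 9.22 with shGFP and at 35.6, 29.7 and 25.4 with shNCOR. With shSMRT it stood at 33.8, 17.0 and 14.2. All shNCOR libraries lay above the control, with a log2 change of 1.27 ± 0.35 (limma adjusted p = 0.013). The call ended without shNCOR library 1 (1.16, adjusted p = 0.0626). Hebp1 RNA rose from 2.26 to 6.51 and 4.77 RPKM, by 1.21 and 0.83 on the log2 scale (limma adjusted p = 9.02e-08 and 1.28e-06).

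Other peaks rose beside genes that were silent or whose RNA was not called. The B3 peak 48880 bp from Cd93, a surface receptor (chr2:148492222-148492609), stood at 58.1, 46.9 and 48.0 with shGFP, 88.4, 155 and 127 with shNCOR and 59.2, 76 and 50.9 with shSMRT. It was higher with shNCOR by 1.17 ± 0.19 (limma adjusted p = 1.72e-05), while Cd93 RNA averaged 0.05, 0.148 and 0.0827 RPKM. The MIRc peak near Pick1, a scaffold protein with a PDZ domain (chr15:79213671-79213919), stood at 15.6, 17.8 and 19.4 with shGFP, 48.8, 47.9 and 49.5 with shNCOR, and 59.2, 73.7 and 55.2 with shSMRT. It rose by 1.25 ± 0.25 and 1.58 ± 0.25 (limma adjusted p = 0.000382 and 4.68e-06), with Pick1 RNA at 8.43, 8.82 and 8.15 RPKM. The B3 peak 65637 bp from Mir1a-2 rose with both hairpins, by 1.23 ± 0.13 and 1.01 ± 0.13 (limma adjusted p = 1.48e-09 and 1.21e-07).

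Among peaks lower with shNCOR, a B3 peak in intron 49 of 57 of Nbea (chr3:55660336-55660673) had the largest fold. Its nearest start site is that of Mab21l1, a gene listed at 0 RPKM in all groups on average. The peak stood at 51.4, 51.6 and 66.4 with shGFP, at 9.24, 11.6 and 10.2 with shNCOR, and at 48.8, 49.9 and 39.6 with shSMRT. The shNCOR libraries lay far below all others, with a log2 change of -2.00 ± 0.27 (limma adjusted p = 5.39e-07). The change with shSMRT was -0.26 ± 0.27 (adjusted p = 0.547), and the difference between the hairpins was 1.74 ± 0.27 (adjusted p = 5.99e-06).

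A B1_Mur4 peak in the first of 4 introns of Tradd, the adaptor of the TNF receptor (chr8:105261684-105261898), was also lower with shNCOR. It stood at 57.0, 62.8 and 57.2 with shGFP, at 19.8, 23.1 and 17.8 with shNCOR, and at 61.0, 39.7 and 38.2 with shSMRT. The log2 change was -1.35 ± 0.25 with shNCOR (limma adjusted p = 0.000186), and Tradd RNA was at 16.1, 15.5 and 15.2 RPKM with no call. A MIR peak 2279 bp from Bsn, which encodes the synaptic protein bassoon (chr9:108192515-108192809), stood at 35.8, 35.6 and 36.9 with shGFP, at 13.2, 9.9 and 13.9 with shNCOR, and at 39.4, 32.9 and 28.3 with shSMRT. It fell by 1.25 on the log2 scale with shNCOR (SE 0.30, limma adjusted p = 0.00397), where Bsn RNA fell by 0.31 from a low level of 1 RPKM (adjusted p = 0.0121).

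The PB1D10 peak in the last intron of Ahnak, which encodes a giant scaffold protein, fell with both hairpins. At chr19:9039967-9040188, with the nearest start site that of Scgb1a1, it stood at 66.0, 59.1 and 60.9 with shGFP. With shNCOR it stood at 14.5, 29.7 and 22.8, and with shSMRT at 12.2, 26.1 and 36.8. Both knockdown groups lay below the control and overlapped each other. The changes were -1.33 ± 0.29 and -1.25 ± 0.29 (limma adjusted p = 0.00168 and 0.00187). The authors called this peak in 3 libraries. Ahnak RNA was higher with shSMRT by 0.37 (adjusted p = 0.00179), the opposite direction to the peak.

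**Figure D4:**
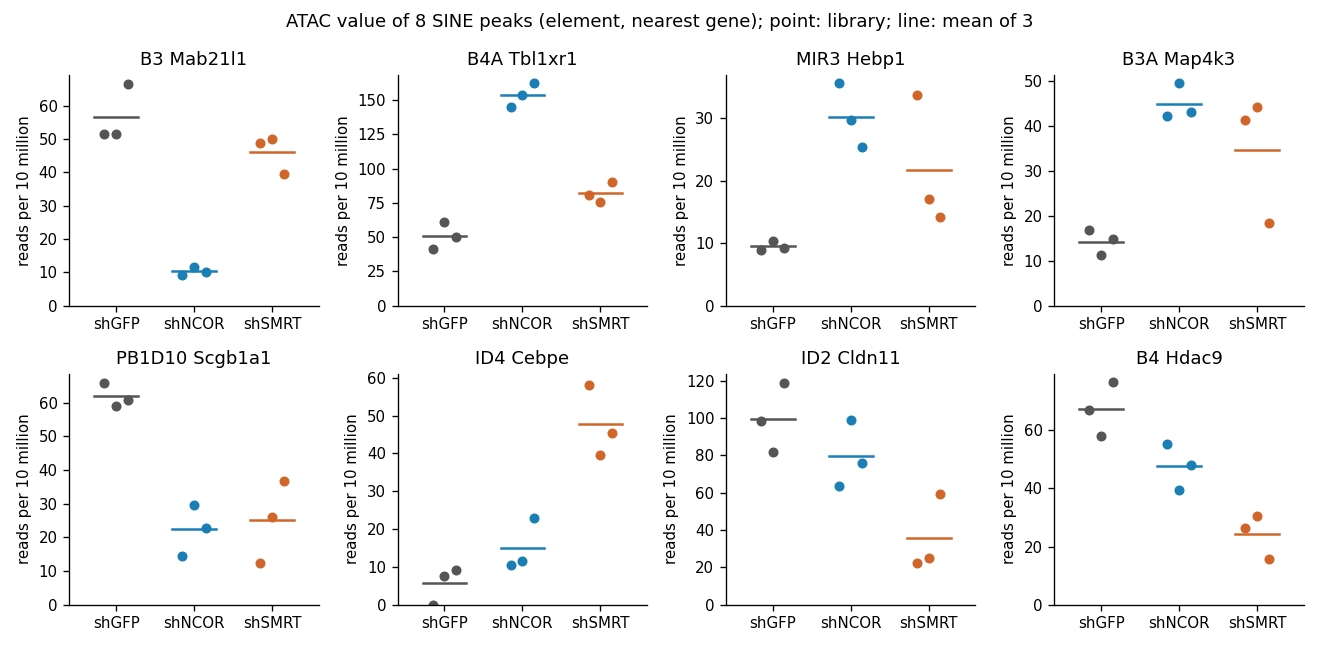
ATAC value of 8 SINE peaks in each library, in reads per 10 M, named by element and nearest gene; points are libraries and lines the means of 3, and each axis starts at 0. The B3 peak near Mab21l1 drops with shNCOR alone (9.24 to 11.6), and the ID4 peak near Cebpe is highest with shSMRT.

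Among peaks higher with shSMRT, the ID4 peak in intron 6 of 10 of Slc7a8, a neutral amino acid transporter (chr14:54733646-54733903), had the largest fold. It stood at 0, 7.5 and 9.22 with shGFP, at 10.6, 11.6 and 22.8 with shNCOR, and at 58.2, 39.7 and 45.3 with shSMRT. The shSMRT libraries lay above all others, with a log2 change of 2.44 ± 0.38 (limma adjusted p = 5.55e-06). The authors called this peak in 3 libraries, so it may be in the table through the group where it is high. Slc7a8 RNA rose by 0.87 with shNCOR and by 0.39 with shSMRT (adjusted p = 1.54e-07 and 5.83e-05). The nearest start site belonged to Cebpe, a myeloid transcription factor, whose RNA was lower with shSMRT by a log2 change of -0.43 (adjusted p = 0.00371).

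MIR elements made up 5 of the 10 SINE peaks with the largest rise under shSMRT, a count without a test. MIR gave 391 of the 2127 SINE peaks tested and 36 of the 102 called higher. Of MIR peaks, 9.21% were called higher, beside 4.8% of SINE peaks, 7.96% of all peaks off promoters and 11.2% of LINE peaks. A MIR peak 49649 bp from Otud1, a deubiquitinase (chr2:19607907-19608258), stood at 6.71, 15 and 13.8 with shGFP, at 0, 9.9 and 10.2 with shNCOR, and at 61.0, 47.6 and 50.9 with shSMRT. It rose by 1.82 ± 0.38 against shGFP (limma adjusted p = 0.000572), and differed by 2.48 ± 0.38 between the hairpins. This peak too was called by the authors in 3 libraries. A MIRb peak in intron 7 of 9 of Mvb12b, a subunit of the ESCRT-I sorting complex, stood at 33.5, 45.9 and 14.8 with shGFP, at 51.5, 38.0 and 31.7 with shNCOR, and at 150.2, 104 and 93.4 with shSMRT. It rose by 1.81 ± 0.25 (adjusted p = 3.42e-07), and Mvb12b RNA was not called. MIR3 peaks in intron 8 of 13 of Gpr89 and 168367 bp from Icos rose by 2.18 and 1.93, and a MIR peak in the first intron of Phactr2 by 1.66. Gpr89 RNA was lower with shSMRT (-0.16, adjusted p = 0.0038).

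B4 and B1 relatives also rose with shSMRT. The B4A peak 113568 bp from Smim20 (chr5:53380587-53380762) stood at 12.3, 9.37 and 8.3 with shGFP, at 17.2, 16.5 and 24.1 with shNCOR, and at 59.2, 69.2 and 58.0 with shSMRT. The 3 groups did not overlap, and the log2 change with shSMRT was 2.17 ± 0.31 (limma adjusted p = 7.16e-07). This peak too was called by the authors in 3 libraries. The PB1D10 peak in the first of 20 introns of Ezh1, a histone H3 lysine methyltransferase, stood at 15.6, 6.56 and 12.0 with shGFP, at 26.4, 24.8 and 36.8 with shNCOR, and at 33.8, 46.5 and 50.9 with shSMRT. It rose by 1.59 ± 0.31 with shSMRT (adjusted p = 0.000203), and Ezh1 RNA rose by 0.43 (adjusted p = 6.62e-05). An RSINE1 peak 127988 bp from Mir6355 and a B4 peak 27119 bp from Zc3hc1 rose by 2.11 and 1.72.

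Among peaks lower with shSMRT, several lay in introns. The ID2 peak in the last intron of Slc7a14 (chr3:31220814-31221123) stood at 98.4, 81.6 and 119 with shGFP, at 63.4, 99.0 and 76.1 with shNCOR, and at 22.5, 25.0 and 59.4 with shSMRT. It fell by 1.46 on the log2 scale (SE 0.22, limma adjusted p = 3.11e-06), with the shSMRT libraries below all others. The RNA of Cldn11, a tight junction protein whose start site was nearest, rose by 0.86 with shNCOR and 0.27 with shSMRT (adjusted p = 2e-07 and 0.00093). The B4 peak in intron 3 of 27 of Hdac9, a class IIa histone deacetylase (chr12:34674171-34674570), stood at 67.1, 58.1 and 76.5 with shGFP, at 55.4, 39.6 and 48.2 with shNCOR, and at 26.3, 30.6 and 15.6 with shSMRT. It changed by -1.34 ± 0.24 with shSMRT (adjusted p = 7.02e-05), with the 3 groups apart. Hdac9 RNA was not called with shSMRT and was lower with shNCOR by a log2 change of -0.35 (adjusted p = 0.000563).

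The B2_Mm1t peak in the first of 4 introns of Maml3, a Notch coactivator, had the largest fall of a B2 element with shSMRT. It stood at 43.6, 17.8 and 30.4 with shGFP, at 17.2, 14.8 and 12.7 with shNCOR, and at 12.2, 6.81 and 1.41 with shSMRT. The change was -1.64 ± 0.39 (limma adjusted p = 0.00231). The authors called this peak in 3 libraries. PB1D10, MIRb and ID_B1 peaks near Klhl42, Phox2a and Gm17619 fell by 1.52, 1.32 and 1.25.

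The largest differences between the hairpins included a peak that moved in opposite directions. The B1F1 peak 61125 bp from Tbc1d9, a GTPase-activating protein (chr8:83104049-83104405), stood at 44.7, 33.8 and 45.2 with shGFP, at 13.2, 18.1 and 26.6 with shNCOR, and at 57.3, 93.0 and 67.9 with shSMRT. The 3 groups did not overlap. It was lower with shNCOR (-0.95 ± 0.26, limma adjusted p = 0.012), higher with shSMRT (0.73 ± 0.26, adjusted p = 0.0392) and differed by 1.69 ± 0.26 between them (adjusted p = 3.85e-06). The difference between the hairpins kept its call under each alternative. The shNCOR call ended without shGFP library 1 or 3 or shNCOR library 1 (largest adjusted p = 0.0686), and the shSMRT call without any of the shGFP libraries or shSMRT library 2 or 3 (largest adjusted p = 0.222). Tbc1d9 RNA rose with shSMRT by 0.80 (adjusted p = 6.37e-05), from 0.279 to 1.23 RPKM. In the other direction, an RSINE1 peak near BB283400 and a B2_Mm1t peak 2476 bp from Snord118, the gene of the U8 small nucleolar RNA, were lower with shSMRT than with shNCOR by differences of -1.37 and -1.26 (adjusted p = 3.54e-05 and 5.02e-05).

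The RNA of the nearest gene was read beside each called SINE peak. Of genes tested in the RNA table, 17.6% were called higher and 20% lower with shNCOR, and 24.4% and 31.4% with shSMRT. Counts are of peaks whose nearest gene was tested, so a gene nearest to several peaks counts once for each. With shNCOR that gene rose beside 30 of 78 higher SINE peaks (38.5%) and fell beside 15 (19.2%). It rose beside 5 of 32 lower SINE peaks (15.6%) and fell beside 11 (34.4%). For all called peaks the shares were 47.1 and 12.3% beside higher peaks and 9.85 and 49.9% beside lower ones.

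With shSMRT, the nearest gene rose beside 32 of 64 higher SINE peaks (50%) and fell beside 11 (17.2%). It rose beside 24 of 84 lower SINE peaks (28.6%) and fell beside 27 (32.1%), so neither direction prevailed. For all called peaks these shares were 52.6 and 18.5%, and 21.7 and 40.6%. Within 20 kb, the gene rose beside 13 of 30 higher SINE peaks (43.3%) and fell beside 5. It rose beside 16 of 54 lower ones (29.6%) and fell beside 22 (40.7%). For all called peaks within 20 kb the shares were 55.2 and 17.1% beside higher peaks, and 20.8 and 41.2% beside lower ones. These are counts without a test, and the nearest gene need not be the gene a site acts on.

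**Figure D5:**
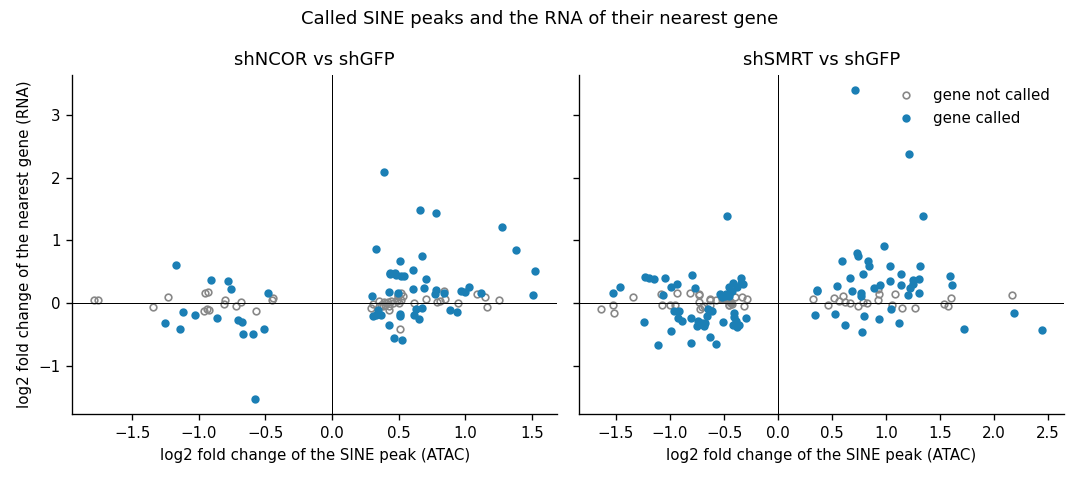
Log2 fold change of each called SINE peak (horizontal axis, ATAC) against that of its nearest gene (vertical axis, RNA), for shNCOR and shSMRT against shGFP; filled points are genes that were called. With shNCOR the gene rose beside 30 of 78 higher peaks, and with shSMRT it rose beside 24 of 84 lower peaks and fell beside 27.

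RNA of the machinery around SINEs moved modestly. RNA polymerase III and its factors transcribe SINEs, and 3 of 23 such genes rose and 5 fell with shNCOR, while 1 rose and 9 fell with shSMRT. Over all genes tested, 17.6% rose and 20% fell with shNCOR and 24.4% rose and 31.4% fell with shSMRT, the background for this and the following lists. Polr3g, the polymerase subunit typical of stem cells, rose from 7.59 to 10.6 RPKM with shNCOR (0.43 on the log2 scale, limma adjusted p = 0.000251), and its paralogue Polr3gl fell from 23.4 to 17.9 RPKM. With shSMRT, Gtf3c3, a TFIIIC subunit, fell from 8.37 to 5.25 RPKM and Polr3d from 19.7 to 15.3. The list's median was -0.01 with shNCOR and -0.09 with shSMRT, beside 0.0020 and -0.02 over all genes.

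Of 20 genes that silence repeats, including the ChAHP complex that acts on SINEs, 4 rose and 5 fell with shNCOR, and 5 rose and 10 fell with shSMRT. The shares with shNCOR were near those over all genes (17.6% higher and 20% lower), as was the share higher with shSMRT (24.4%). Uhrf1, which maintains DNA methylation, fell from 98.2 to 81.6 and 76.1 RPKM. Atf7ip, a partner of the histone methyltransferase Setdb1, rose from 5.47 to 6.98 and 8.54 RPKM. Of 10 CTCF and cohesin genes, 1 rose and 3 fell with each hairpin, among them Ctcf, from 38.6 to 35.7 and 33.3 RPKM (log2 changes of -0.11 and -0.21, limma adjusted p = 0.0289 and 0.00055).

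Among genes whose products bind, edit or sense SINE RNA, none was called higher with either hairpin. Of 12 tested, 4 fell with shNCOR and 7 with shSMRT, beside 20% and 31.4% of all genes. With shNCOR the largest changes were in interferon-inducible sensors and editors of double-stranded RNA. Adar, the RNA editing enzyme, stood at 27.4, 29.1 and 27.7 RPKM with shGFP and at 15.6, 16.3 and 15.8 RPKM with shNCOR, a log2 change of -0.78 (limma adjusted p = 7.53e-08). Ifih1, the sensor MDA5, and Eif2ak2, the kinase PKR, changed by -0.89 and -0.72. With shSMRT Eif2ak2 changed by -0.15 (adjusted p = 0.0156), and Ro60, which binds small non-coding RNAs, by -0.22.

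Among 28 tested genes of transcription factors whose motifs are often read in macrophage peaks, 9 rose and 12 fell with shNCOR, and 18 rose and 7 fell with shSMRT. Over all genes the shares were 17.6% and 20%, and 24.4% and 31.4%. Irf7, an interferon response factor, fell from 19.8 to 2.15 RPKM with shNCOR and to 12.5 RPKM with shSMRT (-2.74 and -0.63). Irf9 fell by 1.25 with shNCOR. Rarb, a retinoic acid receptor, rose from 0.689 to 10.5 RPKM with shNCOR (2.77), and Mitf, a factor of lysosome and pigment genes, rose by 0.57 and 1.19. Cebpa, a myeloid factor, rose by 1.08 and Rxra, the partner of many nuclear receptors, fell by 1.15 with shSMRT.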

How the data were processed

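ATAC-seq (9 libraries) and RNA-seq (9 libraries) of the 72 samples were used, and the other 54 (CUT&Tag and ChIP-seq) are not analysed here. Per the file headers, the deposited ATAC values came from HOMER's peak annotation on mm10 with given peak sizes. They were taken as the reads in each peak after scaling every library to 10 M reads, HOMER's default. This rests on the lower values, which alone were checked and were all whole multiples of 1 read within 0.1 read. The deposited RPKM values were, per the file headers, counted by HOMER over exons of mm10 genes on both strands, so overlapping and antisense genes cannot be told apart. The submitters' processing notes name HOMER, MACS2, Bowtie2, HISAT2 and DESeq2, with mm9 and mm10 as builds; their roles, the handling of reads that map to several places, and any transposase shift are not given in the sources used here. One peak with a cell that held no number was left out.

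Groups followed the titles. Values were tested with limma 3.58.1 (R 4.3.3) on log2(value + 5) over all peaks and on log2(RPKM + 1) over all genes at 1 RPKM or more in 3 libraries, with Benjamini-Hochberg adjustment at 0.05, and the fit was tested on simulated data. Fold changes are on these scales and understate changes of low features. Shares were tested by exact permutation over the 3 groups (Python 3.11.15). Named peaks were the 10 with the largest change in each direction against shGFP, 5 between hairpins, and the highest mean and largest change of each family of 100 or more peaks. A few genes and peaks that the rule takes are not reported here. The members and lists were chosen with earlier results of these data known. Promoter windows came from RefSeq (GRCm38.p6); 92.1% of promoter peaks overlapped a window of their gene. No genome sequence was used here, so the planned motif search over all SINE peaks was not run. Libraries with the same number did not deviate together (correlations of -0.0297 to 0.0367), so they were not treated as pairs. The chi-square per SINE peak between replicates was 1.64 to 1.98, above sampling noise. Figures were drawn with matplotlib 3.10.9.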

Additional observations from a re-analysis of the deposited data

How the results depend on the processing

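Each count of called SINE peaks was recomputed under 19 alternatives, 9 of which left out a library; voom on recovered reads, the 20 kb limit, the family shares under other summaries, and the block and left-out libraries of RNA were chosen after seeing the data. The planned count-model alternatives and the planned sequence alternatives were not run. Peaks higher with shNCOR numbered 97, against 53 with equal totals in peaks and 64 with quantile normalization. With shSMRT 102 were higher, against 186 with voom, and 121 lower, against 69 with equal totals, 73 with TMM and 80 with voom. Between the hairpins 186 were lower, against 62, 80, 92 and 68 with equal totals, TMM, quantile normalization and voom. Without 1 library the counts ran from 44 to 104 higher and 25 to 66 lower with shNCOR, from 61 to 118 and 68 to 140 with shSMRT, and from 66 to 121 and 142 to 177 between the hairpins. Causes were not tested, although fewer libraries by construction lower the power.

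With the replicate number as a block the counts were 93 higher and 53 lower with shNCOR, 95 and 119 with shSMRT, and 100 and 177 between the hairpins; the block turned no count by over 1.5 times, it ended the shSMRT call near Arl4d (-0.23, adjusted p = 0.0668), and on the RNA lists it gave 19 higher and 29 lower with shNCOR and 26 and 35 with shSMRT.

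The SINE share changed by 0.01 with shNCOR, against 0.028 at 2 kb or more from a start site and 0.022 for the median over peaks. With shSMRT the share changed by 0.07, against -0.0022 at that distance and 0.013 for the median. Without 1 library it ran from -0.010 to 0.018 with shNCOR, turning to -0.00053 without shGFP library 1 and to -0.010 without shNCOR library 3, and from 0.055 to 0.075 with shSMRT. The ratio to LTR with shSMRT, 0.0046, turned to -0.020 for the median and ran from -0.0036 (without shSMRT library 3; -0.00077 without shGFP library 3) to 0.011. Family shares with shSMRT turned at 2 kb or more from a start site for B2 (-0.054) and Alu (-0.012) and for the median over peaks for B2 (-0.049), B4 (-0.0022), Alu (-0.034) and ID (-0.012), and B2 turned to -0.0035 without shSMRT library 1 (highest without a library 0.033). The ID share with shNCOR turned to 0.0091 at 2 kb or more, 0.0065 without shGFP library 1 and 0.019 without shNCOR library 1 (lowest without a library -0.019).

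Of 51 pairs of a peak chosen by the naming rule and a comparison, 37 kept their call under every alternative that tested them and 14 lost it in at least 1. The latter included peaks near Gata6, 1700019E08Rik, Sh3kbp1, Tpra1, Hebp1, Sipa1l3 and Arih2 with shNCOR, Gnptab with shSMRT, and Wdr35 and Ankrd63 between the hairpins. Between the hairpins, the peaks with the highest means near Ifnar2 and Osbpl8 turned to 0.094 and 0.041 under quantile normalization. Depth limits single peaks, since the median SINE peak held 25 to 46 reads per library.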
